A study of Mus musculus with 3 samples.

Results

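Irf4, Zeb2, Tcf4, Runx3, Spi1, Bcl11a and Ikzf1 are transcription factors known from type 2 conventional dendritic cells (cDC2s) and plasmacytoid dendritic cells (pDCs). These 7 of the 32285 genes in the count matrices were chosen by name for that role, and their raw counts were read in tumour cDC1s by library and by cluster, and in barcodes outside the cDC1 table that carry Cd209a, Siglech or C1qa. In the study, dendritic cells and their precursors were sorted from tumours to describe how varied tumour cDC1s are. The tumours grew from MCA205 LA-OVA, a mouse fibrosarcoma line that carries ovalbumin. Mutant mice were added to learn if cross-presentation of dead-cell antigen shapes these cells. Tumours of several mice were pooled for each genotype and gave 1 droplet scRNAseq library each, so there are 3 libraries and no replicate of a genotype. WT mice carry neither mutation, sGSN-/- mice lack secreted gelsolin, an actin-binding plasma protein that blocks DNGR-1, and sGSN-/-Clec9a-/- mice also lack Clec9a, the gene of DNGR-1. All mice were on a C57BL/6J background, of both sexes and co-housed. The sort kept CD11c and MHCII positive cells and removed cells with B220, a protein that mouse pDCs carry, or with Ly6D.

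Dendritic cells share a bone marrow progenitor, and their branches are set by transcription factors that act in part against each other. Irf8 with Batf3 serves cDC1s, Irf4 and Zeb2 serve cDC2s, and Tcf4 with its partners Bcl11a and Zeb2 serves pDCs. Spi1 (PU.1), Ikzf1 (Ikaros) and Runx3 act more widely in blood cells and are needed for several dendritic cell types.

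The WT library held 12763 barcodes and 176578136 UMIs, the sGSN-/- library 8173 barcodes and 109270958 UMIs, and the sGSN-/-Clec9a-/- library 9273 barcodes and 113411930 UMIs. The deposited per-cell table names 5806 of these 30209 barcodes as cDC1s in clusters 0 to 11, with 2316 cells in WT, 1712 in sGSN-/- and 1778 in sGSN-/-Clec9a-/-. Between pairs of libraries, 26 to 28 barcodes were the same. Levels are CPM, the UMIs of a gene summed over a group of cells in 1 library, divided by all UMIs of that group in that library and scaled to 1e6, and values are given in the order WT, sGSN-/-, sGSN-/-Clec9a-/-. Where 3 libraries are averaged as mean ± SD (n = 3), they stand as replicates of a cell group although their genotypes differ.

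Clec9a stood at 168, 168 and 0.0931 CPM in the cDC1s, from 5502, 3970 and 2 UMIs. The last value has a 95% Poisson interval of 0.0113 to 0.336 CPM, so the sGSN-/-Clec9a-/- library was at or near 0 as its label says. Gsn, the gelsolin gene, stood at 152, 169 and 167 CPM, and was lowest in WT. The mutation removes the secreted form, which counts from the 3′ end of the transcript do not tell from the cytoplasmic form.

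In GRCm38, Zeb2 (ENSMUSG00000026872) lies on the minus strand at chr2:44983632-45117395, with the counted antisense gene Zeb2os over it. Spi1 (ENSMUSG00000002111) lies at chr2:91082390-91115756, Runx3 (ENSMUSG00000070691) at chr4:135120652-135177990, Ikzf1 (ENSMUSG00000018654) at chr11:11685003-11772926, Bcl11a (ENSMUSG00000000861) at chr11:24078056-24174123, Irf4 (ENSMUSG00000021356) at chr13:30749226-30766976 and Tcf4 (ENSMUSG00000053477) at chr18:69343356-69689079, all on the plus strand. Counted genes on the opposite strand also lie over Runx3 (Gm16224), Ikzf1 (Gm11999 and Gm12000) and Bcl11a (Gm12064 and 4930538E20Rik). No counted gene overlaps a member on its own strand.

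Outside the table, 4731 barcodes met the Cd209a rule, 324 the Siglech rule and 3304 the C1qa rule, each with at least 3 UMIs of its gene and at most 1 of each of the other genes. A further 2989 barcodes with Ncr1 and Nkg7, which mark NK cells, served as the background for Irf4, Spi1 and Bcl11a, which NK cells should lack or hold at a low level. Tcf4 was planned with them, but its Ncr1 level is not used as a background, for the values given with that gene. The sort was set to remove cells with NK1.1, CD3e or CD88 as well, so NK cells, T cells and macrophages were not its targets. The marker sums below include the selecting gene where it is a marker. The 6 cDC2 markers summed to 2010 CPM in the Cd209a group and 57.1 CPM in cDC1s. In the Siglech group the 8 plasmacytoid markers summed to 4579 CPM, against 336 CPM in cDC1s, and all 8 were detected in every library. The 9 macrophage or monocyte markers summed to 10710 CPM in the C1qa group and 349 CPM in cDC1s. The 7 cDC1 markers summed to 2470 CPM in cDC1s. The Siglech group also carried more of the markers of other cells than cDC1s did, with 987 CPM for pre-cDC, 584 CPM for cDC2, 446 CPM for NK, 351 CPM for T cell and 185 CPM for proliferation markers. In cDC1s these sums were 190, 57.1, 21.0, 3.93 and 18.7 CPM. In the Siglech group Cd7 led the pre-cDC sum at 423 CPM and Cd8b1 the T cell sum at 212 CPM. Cd8a, a T cell marker here, is also on the list of pDC genes used below, so the T cell set is not particular to T cells. The median mitochondrial share by library was 2.34%, 2.65% and 3.02% in the Siglech group and 1.57%, 1.65% and 1.95% in cDC1s. In the Cd209a group macrophage or monocyte markers summed to 830 CPM, NK markers to 201 CPM and proliferation markers to 184 CPM. In the C1qa group cDC2 markers, led by Mgl2 at 371 CPM, summed to 832 CPM, NK markers to 132 CPM and proliferation markers to 273 CPM. Barcodes among the top 6% of Scrublet scores, which rank likely doublets, made up 9.17%, 17.5% and 6.93% of the Siglech group. The part of these cells in the results below was not tested, apart from the values given without the high Scrublet scores.

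Irf4, a factor of cDC2s and of their migration, was low in cDC1s and high in the Cd209a and Siglech groups. In cDC1s it stood at 4.35, 4.33 and 4.38 CPM (4.35 ± 0.0247, SD, n = 3), and in the Ncr1 background at 3.0, 3.09 and 5.31 CPM. These ranges overlap, so with all barcodes kept the cDC1 level is not above background. The background rests on the barcodes kept, since without high Scrublet scores it was 1.75, 1.68 and 1.74 CPM beside 4.04, 4.34 and 4.0 CPM in cDC1s, and in thinned cells 3.01, 2.10 and 3.19 CPM beside 4.22, 4.84 and 4.82 CPM. In both settings the cDC1s lay above the Ncr1 group. The Cd209a group held 55.0, 61.6 and 58.3 CPM, the Siglech group 65.7, 66.1 and 60.2 CPM, and the C1qa group 28.4, 26.0 and 31.0 CPM. Every library of these 3 groups lay above every library of the cDC1s, and the C1qa group lay below the other marker groups, which overlapped each other. By cell, 4.37% of cDC1s had an Irf4 UMI, against 2.64% of the Ncr1 group, 39.0% of the Cd209a group, 39.5% of the Siglech group and 26.2% of the C1qa group. Median depth per library was 12231 to 14150 UMIs in cDC1s and 7364.5 to 10515 UMIs in the Ncr1 group, and with cells thinned to 4000 UMIs the shares were 1.56% of cDC1s, 0.962% of the Ncr1 group, 17.3% of the Cd209a group, 19.2% of the Siglech group and 8.50% of the C1qa group.

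Zeb2, a repressor that cDC2s and pDCs need and that holds down Id2, was also low in cDC1s and was highest in the C1qa group. Its cDC1 levels were 12, 9.38 and 10.1 CPM (10.5 ± 1.33). The Cd209a group stood at 171, 170 and 193 CPM, the Siglech group at 210, 232 and 276 CPM, and the C1qa group at 295, 294 and 291 CPM. No 2 of these 4 groups overlapped in range. The Ncr1 group held 46.4 ± 4.75 CPM, above the cDC1s, which is no background value because NK cells use Zeb2 themselves. With cells thinned to 4000 UMIs, 3.52% of cDC1s, 41.6% of the Cd209a group, 54.0% of the Siglech group and 60.4% of the C1qa group had a Zeb2 UMI.

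Tcf4 (E2-2), the factor on which pDC identity rests, was far higher in the Siglech group than anywhere else. It stood there at 1053, 969 and 993 CPM (1005 ± 43.6). Levels were 137, 162 and 115 CPM in the Cd209a group, 106, 96.0 and 91.6 CPM in the C1qa group, and 38.4, 38.0 and 33.4 CPM in cDC1s. The Siglech group lay apart from all others, the Cd209a group lay above the C1qa group, and the cDC1s overlapped the Ncr1 group at 41.0, 47.8 and 35.4 CPM. A Tcf4 UMI was found in 97.2% of Siglech barcodes, 30.7% of cDC1s and 29.3% of the Ncr1 group, and after thinning in 90.4%, 12.4% and 15.1%. The Ncr1 level was 0.300 times that of the Cd209a group for Tcf4, against 0.0651 for Irf4, 0.0804 for Bcl11a and 0.0945 for Spi1, and cDC1 clusters 0 and 5 lay wholly below it. It was thus not used as a background for Tcf4, and how much of the Tcf4 in either group is free RNA was not tested.

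Bcl11a is a zinc finger protein that pDCs and early lymphoid cells need. It was lower in the C1qa group than in the Siglech group, the Cd209a group and the cDC1s as a whole. The Siglech group held 329, 294 and 301 CPM (308 ± 18.8) and the Cd209a group 69.2, 74.0 and 62.6 CPM. In cDC1s the level was 43.7, 41.6 and 39.9 CPM, and in the C1qa group 11, 9.81 and 12.2 CPM. The 4 ranges did not overlap, and the Ncr1 background was lowest with 3.56, 4.97 and 8.02 CPM. Cluster 8 of the cDC1s, taken alone, held 5.81, 9.45 and 5.82 CPM, below every C1qa library. Thinned cells with a Bcl11a UMI came to 65.6% in the Siglech group, 23.3% in the Cd209a group, 15% in cDC1s, 3.81% in the C1qa group and 1.12% in the Ncr1 group.

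Spi1 (PU.1), a master factor of myeloid cells, was high in all of the dendritic cell and C1qa groups. It stood at 316, 327 and 319 CPM in cDC1s, 428, 417 and 399 CPM in the Cd209a group, 370, 346 and 356 CPM in the C1qa group, and 280, 251 and 237 CPM in the Siglech group. The Cd209a group was highest, the Siglech group lowest of these 4, and the Ncr1 background far below with 30.1, 36.3 and 51.1 CPM, or 8.11, 8.39 and 10.6 CPM without high Scrublet scores. A Spi1 UMI was found in 92.4% of cDC1s, 70.7% of the Siglech group and 12.5% of the Ncr1 group, and after thinning in 69.3%, 54.6% and 6.69%.

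Runx3, a runt-domain factor of CD8 T cells, NK cells and some dendritic cells, stood at 117, 125 and 104 CPM in cDC1s. The Siglech group held 317, 345 and 315 CPM, the Cd209a group 205, 209 and 182 CPM, and the C1qa group 163, 169 and 154 CPM. The Ncr1 group was highest with 529, 517 and 431 CPM. Ikzf1 (Ikaros), a zinc finger factor of all lymphoid and many myeloid cells, was level over the cDC1 libraries at 83.8, 83.9 and 81.4 CPM. It stood at 158, 146 and 164 CPM in the Siglech group, 90.2, 99.8 and 103 CPM in the Cd209a group, and 63.1, 65.8 and 71.6 CPM in the C1qa group. Neither gene overlapped between the Siglech, Cd209a or C1qa group and the cDC1s. In the Ncr1 group Ikzf1 stood at 76.5, 92.6 and 88.5 CPM and overlapped the cDC1s.

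**Figure D1:**
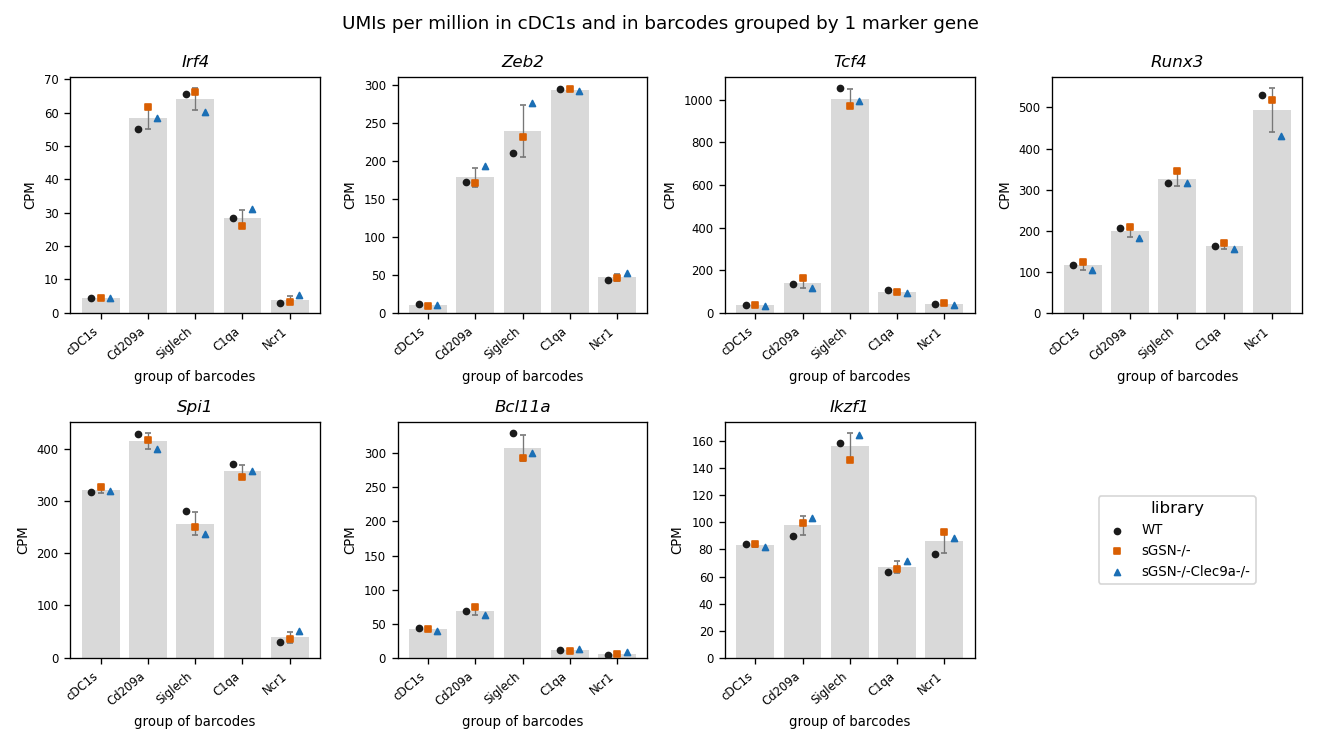
CPM of the 7 members (1 panel each) in the cDC1s and in the Cd209a, Siglech, C1qa and Ncr1 groups, with 1 point per library, a bar from 0 to the mean of the 3 and an error bar of ± 1 SD. Tcf4 and Bcl11a are highest in the Siglech group, with means of 1005 and 308 CPM, and Irf4 and Zeb2 are lowest in the cDC1s among the dendritic cell and C1qa groups.

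The marker groups were compared with the cDC1s, and with each other, by edgeR quasi-likelihood tests on the sums of the 3 libraries, with p-values adjusted over all genes tested (Benjamini-Hochberg) and a threshold of 0.05. In the Cd209a group 5 of 7 members rose against cDC1s and none fell, where 30.0% of all 13196 genes tested rose and 24.8% fell. Zeb2 rose by a log2 fold change of 3.95 ± 0.12 (SE, adjusted p = 2.4e-13) and Irf4 by 3.62 ± 0.12 (adjusted p = 6.2e-13). With all barcodes kept the Irf4 level of cDC1s is not above background, so the size of its fold change is not exact in any comparison with cDC1s. Tcf4 rose by 1.78 ± 0.10, Runx3 by 0.66 ± 0.07 and Bcl11a by 0.59 ± 0.12. All of these were higher in 3 of 3 libraries. Spi1, at 0.24 ± 0.12 (adjusted p = 0.10), and Ikzf1, at 0.11 ± 0.08 (adjusted p = 0.27), did not pass. Spi1 did pass in 4 other settings, with 0.37 by library sizes alone, 0.25 without the sGSN-/-Clec9a-/- library, 0.34 in thinned cells and 0.31 without high Scrublet scores, and Ikzf1 passed with 0.23 by library sizes alone.

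In the Siglech group 6 of 7 members rose against cDC1s and 1 fell, where 19.4% of all genes rose and 23.2% fell. The largest rise among them was that of Tcf4, by 4.40 ± 0.11 (adjusted p = 2.9e-14), followed by Zeb2 with 4.12 ± 0.13 and Irf4 with 3.50 ± 0.16. Bcl11a rose by 2.50 ± 0.13, Runx3 by 1.12 ± 0.08 and Ikzf1 by 0.53 ± 0.09. Spi1 fell by 0.70 ± 0.13 (adjusted p = 3.6e-04) and was lower in 3 of 3 libraries. With a looser group of barcodes, those with at least 1 Siglech UMI and none of the other genes, Tcf4 rose by 3.32, Zeb2 by 3.42, Irf4 by 2.83 and Bcl11a by 1.57, and Ikzf1 no longer passed at 0.22 (adjusted p = 0.064). With at least 10 Siglech UMIs, Spi1 fell by 1.77.

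In the C1qa group 4 members rose against cDC1s and 2 fell, where 33% of all genes rose and 29.7% fell. Zeb2 rose by 4.66 ± 0.12, Irf4 by 2.57 ± 0.12, Tcf4 by 1.28 ± 0.10 and Runx3 by 0.35 ± 0.07. Bcl11a fell by 2.06 ± 0.13 (adjusted p = 7.1e-10) and Ikzf1 by 0.46 ± 0.08 (adjusted p = 1.1e-04). The Spi1 value of 0.01 ± 0.12 did not pass, and it was negative without the WT library, at -0.04, and in barcodes with at least 1 C1qa UMI and none of the other genes, at -0.10. These 3 comparisons share the same cDC1 sums. Side by side, the log2 fold changes in the Cd209a, Siglech and C1qa groups were 3.62, 3.50 and 2.57 for Irf4, 1.78, 4.40 and 1.28 for Tcf4, and 0.59, 2.50 and -2.06 for Bcl11a.

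**Figure D2:**
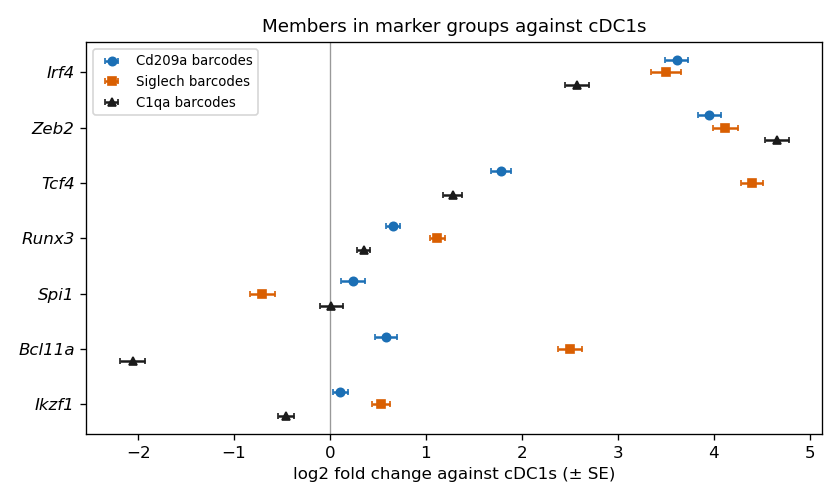
Log2 fold changes of the 7 members in the Cd209a, Siglech and C1qa groups against cDC1s (horizontal axis), with bars of ± 1 SE from the edgeR fit. Bcl11a spans the widest range, from -2.06 in the C1qa group to 2.50 in the Siglech group, and Spi1 lies nearest to 0 in the C1qa group.

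The Siglech and Cd209a groups, both dendritic, were then compared with each other. Of the 7 members 4 rose and 1 fell, where 12.5% of all genes rose and 19.0% fell. Tcf4 rose by 2.62 ± 0.10 (adjusted p = 1.2e-11) and Bcl11a by 1.92 ± 0.13 (adjusted p = 5.0e-09), each in 3 of 3 libraries. Runx3 rose by 0.46 ± 0.08 and Ikzf1 by 0.42 ± 0.09, while Spi1 fell by 0.95 ± 0.13. Irf4, at -0.11 ± 0.13, and Zeb2, at 0.17 ± 0.11, did not pass, and their CPM were higher in the Siglech group in 3 of 3 libraries. The choice of barcodes moved these results. The rule was changed for both groups at once. With at least 1 UMI of its own gene and none of the others in either group, Tcf4 rose by 1.71 and Bcl11a by 1.17, Runx3 (0.06) and Ikzf1 (0.15) no longer passed, Zeb2 turned to -0.50 (adjusted p = 9.5e-04) and Irf4 stood at -0.62 (adjusted p = 8.2e-04). With at least 10 UMIs of its own gene in either group, Irf4 stood at -0.71 (adjusted p = 0.0056) and Spi1 fell by 1.96. By library sizes alone Irf4 stood at 0.14 and Zeb2 passed at 0.42.

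In the C1qa group against the Cd209a group 1 member rose and 5 fell, where 16.1% of all genes rose and 15.8% fell. Zeb2 rose by 0.70 ± 0.10 (adjusted p = 4.5e-05). Bcl11a fell by 2.65 ± 0.13 (adjusted p = 3.3e-10), Irf4 by 1.04 ± 0.10, Ikzf1 by 0.56 ± 0.08, Tcf4 by 0.50 ± 0.10 and Runx3 by 0.31 ± 0.07, and all were lower in 3 of 3 libraries. Spi1 did not pass at -0.23 ± 0.12 (adjusted p = 0.18), but fell by 0.30 in thinned cells and by 0.27 without high Scrublet scores. Runx3 no longer passed without the WT library (-0.28, adjusted p = 0.064). These comparisons share the Cd209a sums.

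The fits scale each sum by TMM factors, which assume that most genes do not differ. Library sizes alone shift the median of all genes by 0.13 in the Cd209a, 0.38 in the Siglech and 0.14 in the C1qa comparison with cDC1s, and by 0.25 for Siglech against Cd209a. The share of genes that rose among those called was then 68.6% in place of 54.8%, 77.1% in place of 45.6%, 64.8% in place of 52.7% and 69.3% in place of 39.7%. CPM use library sizes, and by mean CPM the Siglech group held 0.798 times the Spi1 level of cDC1s. DESeq2 gave 50.5% for Siglech against Cd209a.

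Of the 17 relatives and partners of the members, 7 rose and 5 fell in the Cd209a group against cDC1s, with a median log2 fold change of 0.00 beside 0.03 over all genes. Irf8, the cDC1 factor, stood at 1218, 1180 and 1194 CPM in cDC1s and at 131, 189 and 171 CPM in the Cd209a group, and fell by 3.0. Id2, an inhibitor of E proteins such as Tcf4, fell by 1.66, from 515 to 178 CPM on average. In the Siglech group 9 rose and 6 fell, with a median of 0.54 beside -0.05. Spib, an Ets factor close to Spi1, stood there at 114, 95.9 and 102 CPM, against 0.796, 1.15 and 0.466 CPM in cDC1s. Runx2 stood at 196, 214 and 244 CPM against 5.72, 8.19 and 4.47 CPM. Batf3 fell by 2.86 and Id2 by 2.41. In the C1qa group 5 rose and 8 fell, with a median of -0.16 beside 0.03 (3 rose without sGSN-/-), and Irf8 fell by 2.78. Against the Cd209a group, 6 rose and 2 fell in the Siglech group (median 0.07 beside -0.09), Irf8 among the former with 2.26, and 1 rose and 8 fell in the C1qa group (5 fell without sGSN-/-, median -0.41 beside 0.00). The falls of Id2 and Batf3 in the former comparison, by 0.75 and 0.90, turned to 0.45 and 0.46 with the looser rule in both groups, at least 1 UMI of its own gene and none of the others.

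The marker groups were chosen by Cd209a, Siglech and C1qa, so these genes were left out of the lists here. The shares of all genes that rose and fell are those given with the relatives above. Of 15 pDC genes 13 rose and none fell in the Siglech group against cDC1s, with a median of 6.24 beside -0.05 (1 fell with no filter on low counts, and 1 with the looser rule for the group). Klk1 stood at 220, 267 and 268 CPM, and Dntt at 81.8, 71.2 and 94.4 CPM, and both were at most 0.212 CPM in every cDC1 library. Ly6d, the gene of a protein that the sort was set against, stood at 118, 138 and 98.9 CPM, with a level of 0.119 CPM in cDC1s. Against the Cd209a group all 15 rose (median 5.25 beside -0.09). In the Cd209a group against cDC1s 8 of 15 rose and 3 fell (median 0.64 beside 0.03), and in the C1qa group 3 rose and 7 fell (median -1.03 beside 0.03). C1qa against Cd209a gave 1 rise and 9 falls (median -1.76 beside 0.00). Of the 18 cDC2 genes 15 passed the filter on low counts, which leaves 14 without Cd209a. Their medians over all genes are those given beside the pDC genes. In the Cd209a group 9 rose and 3 fell against cDC1s (median 0.87), with Mgl2 at 574, 579 and 536 CPM against 9.03, 8.06 and 11.9 CPM, and Sirpa at 102, 98.7 and 100 CPM against 3.67, 2.72 and 2.89 CPM. In the Siglech group 5 rose and 6 fell (median -0.09), and in the C1qa group 7 rose and 5 fell (median 0.42). Against the Cd209a group, 9 fell and none rose in the Siglech group (median -0.62), and 4 rose and 8 fell in the C1qa group (2 rose without WT, median -0.41).

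Within the cDC1s, the cluster labels derive from these very counts, and an adjusted p here tells only how alike the 3 libraries are. Across clusters 0 to 10 all 7 members passed the F-test, where 79.4% of 9606 genes did. F ranged from 5.12 for Irf4 (adjusted p = 1.8e-04) to 31.2 for Zeb2 (adjusted p = 2.2e-14). The ratio of the highest to the lowest cluster mean was 11.4 for Bcl11a, 11.1 for Zeb2, 7.19 for Irf4, 3.47 for Tcf4, 2.83 for Ikzf1, 2.53 for Runx3 and 1.35 for Spi1. With a library left out it ran from 6.18 to 11.4 for Irf4 and from 10.4 to 19.4 for Zeb2. Cluster 11, with 60 cells and a median of 2004 to 2506 UMIs by library, was left out of the tests, and held no Irf4 UMI.

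Zeb2 was highest in cluster 4, an early state by the study's naming, with 52.5, 38.2 and 51.6 CPM (47.4 ± 7.98). No other cluster reached this range. Cluster 8 followed with 32.9, 15 and 23.3 CPM and cluster 10 with 21.3, 12.9 and 23.4 CPM, then clusters 9, 6 and 7 with means of 16.4, 12.6 and 10.5 CPM, each overlapping its neighbour. Clusters 1, 3, 5, 2 and 0 had means between 6.51 and 4.29 CPM and overlapped too, with single libraries at 2.08 to 10.1 CPM. Thinned cells with a Zeb2 UMI made up 13.5% of cluster 4 and 1.73% of cluster 0. Cluster 4 also held cDC2 markers at 330, 267 and 335 CPM, led by Cd209a at 183 CPM, against 58.4, 57.2 and 55.6 CPM in all cDC1s. Its macrophage or monocyte markers stood at 493, 384 and 508 CPM, led by Ccr2 at 305 CPM. All cDC1s held these at 379, 321 and 347 CPM, with Ccr2 at 278 CPM. Pre-cDC markers stood at 307, 294 and 237 CPM in cluster 4 and at 199, 187 and 185 CPM in all cDC1s. High Scrublet scores made up 11.3%, 4.14% and 14.8% of the cells of cluster 4, and without them Zeb2 stood at 37.2, 37.5 and 43.2 CPM.

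For Irf4 all 10 pairs of neighbours in the order of clusters overlapped, but clusters 8 and 4 lay above every library of clusters 0 to 3, 5, 7, 9 and 10. The highest mean was in cluster 8, a mature Ccr7-bearing state, with 9.69, 10.2 and 27.2 CPM from 10, 13 and 14 UMIs. Cluster 4 followed with 7.38, 7.94 and 12.5 CPM and cluster 6 with 13.4, 4.02 and 6.72 CPM. Clusters 8 and 4 lay above the whole Ncr1 range, cluster 6 overlapped it, and the remaining clusters had means of 4.03 to 2.18 CPM and overlapped it or lay within it. Without high Scrublet scores the Ncr1 mean was 1.72 CPM, and clusters 2, 3, 4, 6, 7 and 8 lay above its range. In thinned cells cluster 4 overlapped the Ncr1 group, with 5.24, 3.12 and 5.40 CPM, and cluster 8 lay above it with 17.9, 21.1 and 46.5 CPM. An Irf4 UMI was found in 7.14% of thinned cluster 8 cells (95% Clopper-Pearson interval 3.96% to 11.7%), against 0.962% of thinned Ncr1 barcodes.

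Tcf4 was highest in cluster 7, the state with interferon-stimulated genes, at 81.1, 77.2 and 63.3 CPM. Plasmacytoid markers summed there to 803, 847 and 851 CPM, of which Bst2, also an interferon-stimulated gene, made up 821 CPM on average, while Ly6d, Klk1, Cox6a2 and Tlr7 had no UMI. Cluster 4 followed with 66.4, 59.6 and 56.1 CPM, cluster 10 with 78.0, 48.3 and 33.5 CPM, and cluster 6 with 45.3, 45.2 and 47.7 CPM. Clusters 7 and 4 lay above the Ncr1 range, and clusters 6 and 10 overlapped it. In thinned cells cluster 4 overlapped it too, with 56.3, 68.8 and 39.6 CPM beside 46.8, 50 and 37.4 CPM. The remaining clusters had means from 35.1 CPM in cluster 1 to 21.3 CPM in cluster 0. Among these, clusters 0 and 5 lay wholly below the Ncr1 range, with 20.6, 25.4 and 17.9 CPM and 28.5, 27.2 and 25.0 CPM. Thinned cells with a Tcf4 UMI made up 24.1% of cluster 7, 18.8% of cluster 4 and 15.1% of the Ncr1 group.

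Bcl11a and Ikzf1 both had their highest means in clusters 10 and 6 and their lowest mean in cluster 8. Bcl11a was highest in cluster 10, the Cxcl9 and Cxcl10 state, with 103, 83.8 and 53.6 CPM from 29, 26 and 16 UMIs, followed by cluster 6 with 89.1, 64.3 and 61.8 CPM. It was lowest in cluster 8 with 5.81, 9.45 and 5.82 CPM, below every library of every other cluster tested and overlapping the Ncr1 range. Without high Scrublet scores cluster 8 held 4.30, 8.93 and 5.82 CPM and the Ncr1 group 1.53, 2.32 and 1.74 CPM, with no overlap. Thinned cells with a Bcl11a UMI came to 24.3% of cluster 10 and 1.53% of cluster 8. Ikzf1 was highest in cluster 6 with 153, 170 and 124 CPM, then in cluster 10 with 152, 116 and 110 CPM and cluster 7 with 113, 132 and 103 CPM. Cluster 6 was the shallowest of clusters 0 to 10, with a median of 9374, 7237 and 8288.5 UMIs per cell. The cDC1s as a whole had medians of 14092, 14150 and 12231 UMIs. The lowest Ikzf1 levels were those of cluster 8, with 38.8, 52.7 and 66.0 CPM, which overlapped cluster 1 at 64.4, 57.3 and 55.0 CPM. Without WT, cluster 1 had the lowest Ikzf1 mean. Over the means of the 11 clusters the Pearson r of Bcl11a and Ikzf1 was 0.83, which is a description over clusters of the same libraries.

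Runx3 was high in the early clusters, which held 172, 175 and 140 CPM (cluster 1) and 169, 151 and 148 CPM (cluster 4). Cluster 10 held 262, 129 and 80.3 CPM, so that its WT library stood apart, and cluster 8 held 157, 172 and 114 CPM. Clusters 0, 6, 7 and 5 had means from 125 to 101 CPM, and clusters 2, 3 and 9 were lowest with 76.3, 74.0 and 64.3 CPM. Spi1 was even by mean, with means of 309 to 339 CPM in 10 clusters and 225, 261 and 266 CPM in cluster 6, which lay below all of them in mean and did not overlap its neighbour in that order. In cluster 8 the libraries stood at 264, 331 and 421 CPM, and the WT value lay within the cluster 6 range.

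**Figure D3:**
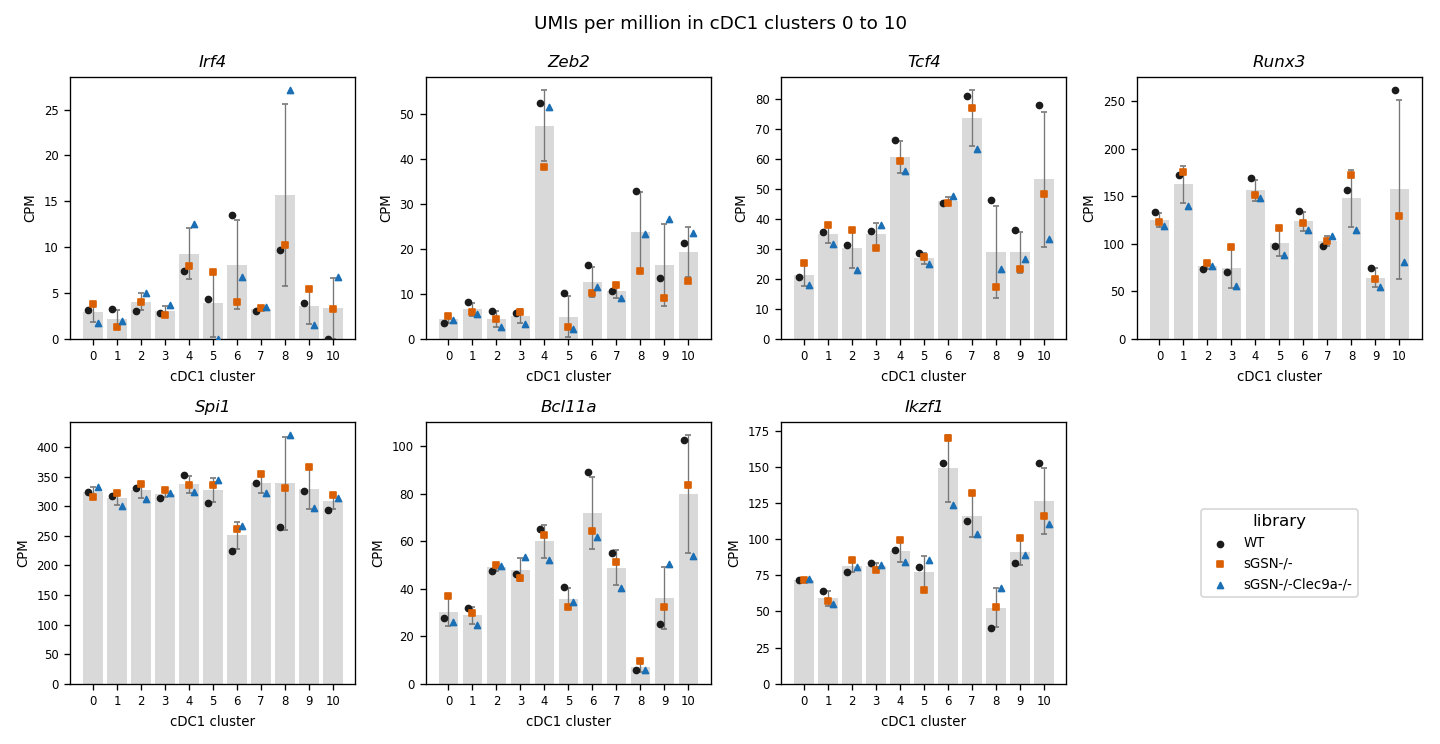
CPM of the 7 members (1 panel each) in cDC1 clusters 0 to 10, with 1 point per library, a bar from 0 to the mean of the 3 and an error bar of ± 1 SD. Zeb2 peaks in cluster 4 (47.4 CPM), Tcf4 in cluster 7 (73.9 CPM), and Bcl11a is lowest in cluster 8 (7.03 CPM).

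The study takes clusters 8 and 10 as possible endpoints of activation, and Bcl11a and Ikzf1 went opposite ways in them. In cluster 8 against the other cDC1s 3 members rose and 2 fell, where 21.3% of 10964 genes rose and 20.4% fell. Irf4 rose by 1.90 ± 0.35 (adjusted p = 4.9e-04), Zeb2 by 1.36 ± 0.26 (adjusted p = 6.0e-04) and Runx3 by 0.59 ± 0.12 (adjusted p = 0.0013), each in 3 of 3 libraries. Bcl11a fell by 2.37 ± 0.22 (adjusted p = 4.8e-07) and Ikzf1 by 0.58 ± 0.15 (adjusted p = 0.0061), also in 3 of 3 libraries. Spi1, at 0.23 ± 0.14, and Tcf4, at -0.18 ± 0.23, did not pass. Without the WT library Tcf4 fell by 0.77 (adjusted p = 0.033) and Ikzf1 no longer passed (-0.39, adjusted p = 0.11). Without the sGSN-/- library Runx3 no longer passed (0.46, adjusted p = 0.058) and Tcf4 stood at 0.21. In thinned cells Irf4 rose by 2.85, Bcl11a fell by 3.46 and Tcf4 stood at 0.19. Macrophage or monocyte markers in cluster 8 summed to 699, 105 and 118 CPM, led by Apoe at 103 CPM on average, so the WT library stood apart, and it was also highest in Zeb2 and Tcf4. In the other cDC1s these markers summed to 369, 333 and 352 CPM, above both mutant libraries of cluster 8. NK markers summed to 15.5, 126 and 21.3 CPM, led by Gzma at 34.1 CPM, and the sGSN-/- library, highest in these, was also highest in Runx3. The other cDC1s held NK markers at 9.48, 31.3 and 16.8 CPM. T cell markers summed to 15.5, 24.4 and 5.82 CPM, against 2.84, 3.81 and 3.58 CPM in the other cDC1s. Proliferation markers summed to 67.8, 76.4 and 13.6 CPM, against 16.6, 18.0 and 16.8 CPM. The cDC2 markers in cluster 8 summed to 93.0, 18.9 and 40.8 CPM, and ranked the libraries as Zeb2 did. In the other cDC1s they summed to 57.3, 59.4 and 55.9 CPM, again above both mutant libraries of cluster 8. The part of these markers in Zeb2, Tcf4 and Runx3 was not tested.

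In cluster 10, with 21, 27 and 28 cells, 2 members rose against the other cDC1s and none fell, where 3.74% of 10635 genes rose and 3.76% fell. Bcl11a rose by 0.87 ± 0.18 (adjusted p = 0.0073) and Ikzf1 by 0.53 ± 0.14 (adjusted p = 0.030), each in 3 of 3 libraries. Bcl11a no longer passed without WT (0.72, adjusted p = 0.14) or without sGSN-/- (0.81, adjusted p = 0.13), and Ikzf1 no longer passed with any library left out (0.41, 0.58 and 0.59, adjusted p = 0.26, 0.13 and 0.12). With the library as a block, Ikzf1 stood at 0.53 (adjusted p = 0.096), with no filter on low counts at 0.50 (adjusted p = 0.052) and in thinned cells at 0.51 (adjusted p = 0.29). The values of Zeb2 (0.80 ± 0.39), Tcf4 (0.46 ± 0.23), Runx3 (0.36 ± 0.22), Spi1 (-0.12 ± 0.12) and Irf4 (-0.44 ± 0.79) did not pass. Without WT, Runx3 stood at -0.17 and Irf4 at 0.13, and Irf4 stood at -1.45 without sGSN-/-Clec9a-/- and at -7.11 in thinned cells, where cluster 10 held no Irf4 UMI. The cDC2 markers in cluster 10 summed to 142, 512 and 100 CPM, led by Cd209a, against 57.7, 51.1 and 54.9 CPM in the other cDC1s. Their part was not tested.

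Cluster 8 against cluster 10 tested 5 members, since Irf4 and Zeb2 had too few counts. None rose and 2 fell, where 18.8% of 4229 genes rose and 16.2% fell. Bcl11a fell by 3.23 ± 0.35 (adjusted p = 1.0e-05) and Ikzf1 by 1.13 ± 0.25 (adjusted p = 0.0030), in 3 of 3 libraries. Without the WT library Ikzf1 no longer passed (-0.80, adjusted p = 0.086). Tcf4 stood at -0.68 ± 0.40, Spi1 at 0.29 ± 0.20 and Runx3 at 0.13 ± 0.29, and none of them passed. Runx3 turned to -0.06 by library sizes alone, -0.09 without sGSN-/- and -0.03 without sGSN-/-Clec9a-/-. The comparisons of clusters 8 and 10 share cells. Library sizes alone shift the median of all genes by -0.16 for cluster 8 and by -0.17 for cluster 8 against 10, and give 38.5% in place of 51.0% and 39.1% in place of 53.8% as the share that rose among genes called. For cluster 10 that share was 61.1% by library sizes alone and 66.8% by DESeq2 in place of 49.9%.

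Of all genes, 21.3% rose and 20.4% fell in cluster 8, and 3.74% and 3.76% in cluster 10. In cluster 8 against cluster 10 the shares were 18.8% and 16.2%. Among relatives and partners, 7 rose and 7 fell of 15 tested in cluster 8 (median -0.04 beside -0.09 over all genes). Spib stood at 11.6, 8.66 and 5.82 CPM there, against a level of 0.802 CPM over all cDC1s, and Id2 at 1082, 1082 and 1056 CPM against 514, 542 and 490 CPM. In cluster 10 4 rose and 1 fell of 14 (median -0.14 beside -0.12), with Ikzf2, a relative of Ikzf1, at 14.2, 29.0 and 36.8 CPM against 6.21, 8.74 and 6.99 CPM over all cDC1s. Between clusters 8 and 10 3 rose and 3 fell of 7 (median -0.35 beside 0.01). The cDC2 list gave 6 rises and 3 falls of 15 in cluster 8 (median 0.38), 4 and 1 of 15 in cluster 10 (median 0.96), and 2 and 2 of 9 between them (median 0.49). Those that rose in cluster 8 are led by Ccl22, Pdcd1lg2 and Ccl17, known from mature dendritic cells at large, and Ccl22 stood at 2153, 1178 and 1244 CPM. The pDC list gave 7 rises and no fall of 11 in cluster 8 (median 0.99, with Spib, a relative too, and Cd8a, the leading T cell marker there, among the rises), 1 and none of 10 in cluster 10 (Irf7, median 0.32), and none of 2 between them (median 0.20 beside 0.01). Of the 16 pDC genes, 11 passed the filter on low counts in the cluster 8 comparison and 10 in that of cluster 10. Of the 18 cDC2 genes, 15 passed it in each. A gene can pass the filter through the group where it is high. The splits and medians of these lists in any comparison of clusters 8 and 10 are thus not read as results about the lists. Some of these counts rested on single libraries. In cluster 8, falls among relatives came to 4 without WT and to 4 without sGSN-/-, and rises in the pDC list to 4 without sGSN-/-. In cluster 10, rises among relatives came to 2, 0 and 1 without WT, sGSN-/- and sGSN-/-Clec9a-/- in turn.

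In the early clusters 4 and 1 against the resting clusters 5, 2, 3, 6 and 0, 3 members rose and 1 fell, where 19.1% of 10696 genes rose and 19.4% fell. Zeb2 stood at 24.7, 17.1 and 22.4 CPM in the early clusters and at 6.77, 5.05 and 4.11 CPM in the resting ones, with no overlap, and rose by 1.98 ± 0.17 (adjusted p = 9.6e-07). Runx3 stood at 171, 167 and 143 CPM against 99.9, 107 and 91.5 CPM, and rose by 0.70 ± 0.07 (adjusted p = 3.0e-06). Tcf4 stood at 47.1, 45.5 and 40.7 CPM against 30.1, 30.6 and 27.3 CPM, and rose by 0.61 ± 0.07 (adjusted p = 1.6e-05). Ikzf1 fell by 0.23 ± 0.07 (adjusted p = 0.013), from 84.6, 82.3 and 83.9 CPM to 74.9, 71.9 and 65.6 CPM, and no longer passed without sGSN-/- (-0.26, adjusted p = 0.052) or without sGSN-/-Clec9a-/- (-0.18, adjusted p = 0.100). The other members stood at 0.28 ± 0.22 (Irf4), 0.03 ± 0.06 (Spi1) and -0.09 ± 0.08 (Bcl11a). Irf4 turned to -0.45 in thinned cells and to -0.03 without high Scrublet scores, and Spi1 turned to -0.0067 without WT and to -0.0078 with no filter on low counts.

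The early clusters are not alike, and cluster 4 lay above cluster 1 without overlap in Zeb2, Irf4, Bcl11a, Tcf4, Ikzf1 and Spi1. For Spi1 the gap was small, with 353, 335 and 324 CPM against 318, 323 and 301 CPM. For Zeb2 cluster 1 held 8.14, 5.84 and 5.57 CPM, and cluster 4 was higher in 3 of 3 libraries, by 7.28 times on average. Irf4 was 4.24 times as high in cluster 4, from 3.26, 1.33 and 1.96 CPM in cluster 1, though in thinned cells the clusters overlapped. Tcf4 was 1.73 times as high, from 35.6, 37.9 and 31.8 CPM. Bcl11a stood at 65.3, 62.5 and 52.1 CPM against 31.9, 29.7 and 24.6 CPM. Ikzf1 stood at 92.5, 99.3 and 83.9 CPM in cluster 4, near or above the resting level, and at 64.4, 57.3 and 55.0 CPM in cluster 1, below it. Of the cDC2 list 6 of 15 rose and 3 fell in the early clusters (median 0.61 beside -0.01 over all genes), with Cd209a at 92.5, 66.7 and 78.0 CPM against 5.25, 3.35 and 3.44 CPM and Itgam at 25.5, 17.6 and 21.2 CPM against 4.69, 4.16 and 5.01 CPM. Of the pDC list 4 of 10 rose and 2 fell (median 0.17), with Siglech at 10.9, 13 and 15.4 CPM against 2.18, 3.49 and 2.24 CPM. Of the relatives 3 of 14 rose and 3 fell (median -0.02), and 1 rose without WT, with Runx2 at 11.8, 15.4 and 8.51 CPM against 3.55, 4.91 and 2.69 CPM and Irf8 lower by 0.41.

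Between genotypes, 1 library stands for each, so no test was made and a value past 1.5-fold was counted, among genes with at least 50 CPM in either library. Runx3, Spi1 and Ikzf1 reach that level in cDC1s and none of the 3 was past 1.5-fold. Of 2520 genes, 0.278% were higher and 0.317% lower by that measure in sGSN-/- against WT, and of 2466 genes, 0.162% were higher and 1.01% lower in sGSN-/-Clec9a-/- against sGSN-/-. The ratio of sGSN-/- to WT was 1.06 for Runx3, 1.03 for Spi1 and 1.0 for Ikzf1, and that of sGSN-/-Clec9a-/- to sGSN-/- was 0.835, 0.976 and 0.970. The farthest from 1 among all members, with cells as they were, were Zeb2 in sGSN-/- against WT, at 0.784 (95% interval 0.662 to 0.927), and Runx3 in sGSN-/-Clec9a-/- against sGSN-/-, at 0.835 (0.790 to 0.882). With clusters weighted equally these were 0.669 and 0.826, Zeb2 and Irf4 in sGSN-/-Clec9a-/- against sGSN-/- stood farther from 1, at 1.35 and 1.32, and Runx3 in sGSN-/- against WT turned from 1.06 to 0.924. The intervals cover counting error only, and differences between mice or sorts cannot be told apart from genotype.

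The genes whose profile was most like that of a member were ranked by Pearson r of mean log2(CPM + 1) over 15 profiles, clusters 0 to 10 and the 4 marker groups, among 4937 genes. For Irf4 these were Pltp, Sirpa and Cybb, each at 0.93, and for Zeb2 Sirpa (0.95), Cybb (0.95) and Capg (0.94). Tcf4 was followed by Ptpn6 (0.97), Slc44a2 (0.90) and Blnk (0.89), and Bcl11a by Gpr146 (0.93), Adpgk (0.91) and Kmo (0.90). Runx3 had Mob4 (0.92), Txk (0.92) and Ppwd1 (0.92), Spi1 had Cd74 (0.95), Ifngr2 (0.92) and Ptov1 (0.92), and Ikzf1 had Selenot (0.90), Susd6 (0.85) and Il3ra (0.83). The profiles come from the same 3 libraries, and the 4 marker groups lie far from the clusters. Irf4 and Zeb2 had an r of 0.87 over the 15 profiles and 0.64 over the 11 clusters.

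RefSeq promoters (GRCm38.p6), from 250 bases before to 50 after a start, were found for 5 members, with 10 starts in all. Those of Bcl11a and Ikzf1 are printed because these genes moved together over the clusters, and that of Runx3 because it holds the most matches. Ikzf1 and Runx3 have 2 starts each, and the one that comes first on the chromosome is printed. The other promoter of each holds no match. Motifs searched on both strands were the IRF and PU.1 composite element (in 2.72% of 32851 promoters), CAGGTG for an E2-box (20.2%), TGTGGT for RUNX (16.8%), TGGGAA for Ikaros (25.6%) and GAGGAAGT for PU.1 (3.20%), and no matches overlapped. Capitals mark matches on either strand. The Runx3 promoter at chr4:135120395-135120694, plus strand, holds CAGGTG at bases 18 to 23, TGGGAA at 97 to 102 and the reverse complement of TGTGGT at 117 to 122 and 125 to 130, the Bcl11a promoter at chr11:24080445-24080744, plus strand, holds TGGGAA at 90 to 95, and the Ikzf1 promoter at chr11:11685675-11685974, plus strand, holds none of these motifs. A match describes the letters and is not evidence of binding.
Runx3: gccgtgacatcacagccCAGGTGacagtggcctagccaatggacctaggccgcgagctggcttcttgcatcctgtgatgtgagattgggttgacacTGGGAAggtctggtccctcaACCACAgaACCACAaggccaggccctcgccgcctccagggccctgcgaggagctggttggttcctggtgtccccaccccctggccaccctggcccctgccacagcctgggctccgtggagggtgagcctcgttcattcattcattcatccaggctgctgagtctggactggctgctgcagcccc
Bcl11a: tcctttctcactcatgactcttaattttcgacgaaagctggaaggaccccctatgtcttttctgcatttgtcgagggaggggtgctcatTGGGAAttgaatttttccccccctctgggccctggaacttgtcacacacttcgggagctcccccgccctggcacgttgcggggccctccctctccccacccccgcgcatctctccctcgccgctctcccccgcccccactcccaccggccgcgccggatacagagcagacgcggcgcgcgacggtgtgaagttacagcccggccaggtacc
Ikzf1: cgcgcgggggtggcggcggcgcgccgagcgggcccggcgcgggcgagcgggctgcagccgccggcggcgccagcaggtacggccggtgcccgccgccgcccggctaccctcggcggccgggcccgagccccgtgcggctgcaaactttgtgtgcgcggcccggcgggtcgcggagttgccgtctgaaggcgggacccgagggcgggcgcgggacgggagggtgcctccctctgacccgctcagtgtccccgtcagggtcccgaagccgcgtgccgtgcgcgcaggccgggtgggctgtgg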

How the data were processed

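UMI counts were made by the authors with Cell Ranger 6.0.1 (mm10) and deposited without normalisation, and the cluster labels they deposited for the cDC1s came from Seurat after quality filters and integration of the libraries. The map coordinates of each cell were not used here. Barcodes outside the table needed at least 200 genes and at most 17.5% mitochondrial UMIs (mean plus 2 SD). A marker group needed at least 3 UMIs of its gene and at most 1 of each other, and the Ncr1 group at least 1 Ncr1 and 3 Nkg7 UMIs and at most 1 of the others. Ncr1 barcodes were left out of the other groups. No doublets were removed, and leaving out the top 6% of Scrublet scores in each library was an alternative.

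Counts were summed by library and group and tested with edgeR 4.0.16 (R 4.3.3) after TMM scaling and a filter on low counts, with DESeq2 1.42.0 and the library as a block as alternatives. Python 3.11.15, scanpy 1.11.5, numpy 2.4.6, scipy 1.17.1 and pandas 2.3.3 were also used. The 7 members are named in every comparison, and of each list up to 3 genes past the threshold with the largest and 3 with the smallest log2 fold change could be named. The 3 genes most like a member were taken from genes with a mean of at least 20 CPM. The members and lists were chosen with earlier results of these data known. Poisson and Clopper-Pearson intervals cover counting error only.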

Additional observations from a re-analysis of the deposited data

How the results depend on the processing

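With 1 library per genotype, mice, sorts and genotypes cannot be told apart, and leaving out a library leaves 2 sums against 2, with the spread pooled over genes by edgeR. Marker groups were chosen by few UMIs, and ambient RNA was not modelled. The cause of the shifts below was not tested.

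In cluster 10, 2 members passed. It was 1 with no filter on low counts, 1 with the library as a block, which ended the call of Ikzf1 (adjusted p = 0.096), 1 in thinned cells and 0 to 1 with a library left out. In cluster 8 against cluster 10, 2 passed, with 1 to 2 with a library left out. In thinned cells Ikzf1 passed, and Bcl11a and Tcf4 were not tested, since they did not pass the filter on low counts. The other 98 counts of members passing, over all comparisons and settings, were within 1.5 times.

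Single values turned direction as follows. Tcf4 in cluster 8 stood at 0.19 in thinned cells and at -0.77 to 0.21 with a library left out. In cluster 10, leaving out a library gave -1.45 to 0.13 for Irf4 and -0.17 to 0.59 for Runx3. Runx3 in cluster 8 against 10 stood at -0.0612 by library sizes alone and at -0.0944 to 0.64 with a library left out. In early against resting cDC1s, Irf4 stood at -0.45 in thinned cells and -0.0301 without high Scrublet scores, and Spi1 at -0.0078 with no filter on low counts and -0.0067 to 0.064 with a library left out. Spi1 in C1qa barcodes against cDC1s stood at -0.10 with at least 1 marker UMI and none of the others, and at -0.0441 to 0.0173 with a library left out. In Siglech against Cd209a barcodes, Irf4 stood at 0.14 by library sizes alone, and with at least 1 marker UMI and none of the others in both groups Zeb2 stood at -0.50, Id2 at 0.45 and Batf3 at 0.46. Of all member values under these settings, 637 kept direction and call, 17 lost the call, 11 gained it and 15 turned direction.

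The number of all genes called fell by over 1.5 times in thinned cells for clusters 0 to 10 (7623 to 5081), cluster 8 (4569 to 2943), cluster 10 (798 to 453), cluster 8 against 10 (1479 to 742), early against resting (4114 to 2733), Siglech against cDC1s (5617 to 3442) and Siglech against Cd209a (4150 to 2616). With a library left out it fell as far as 2989 in cluster 8, 318 in cluster 10, 939 in cluster 8 against 10, 2579 in early against resting, 2743 in Siglech against Cd209a and 2576 in C1qa against Cd209a (from 4200). With no filter on low counts the median of all genes moved by -0.36 in cluster 8, -0.56 in cluster 10 and 0.29 in cluster 8 against 10, where 67.2% of genes called rose.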
